A study of Mus musculus with 6 samples.

Results

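The 42 genes described here encode the machinery of autophagy and of the lysosome. They were chosen by name, with no filter on a measured value, but with earlier results of these data known. All 42 were found among the 21362 genes of the deposited tables, and 41 of them reached a mean of 1 CPM (counts per 1000000 counts, after scaling for library composition). Autophagy wraps parts of the cytoplasm in a double membrane, the autophagosome, and delivers them to the lysosome, an acidic compartment whose hydrolases break down proteins, sugars and lipids. A kinase complex around ULK1 starts the process, a lipid kinase complex around Beclin 1 marks the membrane, and conjugation enzymes attach the small ATG8 proteins that bind cargo receptors. In T cells autophagy is known to supply metabolic building blocks after activation and to support the survival of memory and regulatory T cells.

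RNA sequencing was done on 6 libraries of mouse CD4+ T cells, in a series about regulatory T cells given sorafenib, an oral inhibitor of several protein kinases, and cells without it. Beyond a numbered title and the cell type the labels are silent: drug, strain, age, dose and time are given for no library. No library was therefore put in a group, no treated and untreated cells were compared, no value was averaged over replicates and no p-value is given. Names follow the titles, from library 1 through library 6, and a run of 6 values keeps that order.

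Totals lay between 32435799 and 36316162 counts per library, so that 3 counts, taken here as a rough upper limit for a count of 0, stood for at most 0.0966 CPM. All 12 genes of a helper and regulatory T cell list reached a mean of 1 CPM, and 11 of them a mean of 10 CPM. Foxp3, which defines regulatory T cells, was the gene that stayed below 10 CPM on average, with 7.37 CPM in its lowest library. Macrophages and monocytes are rich in lysosomes, and 12 of their 14 markers, all but Ctss and Cd68, summed to between 0.844 and 1.205 CPM, with Lyz2 at 0 in library 1 and at most 0.116 CPM elsewhere. Ctss and Cd68 encode lysosomal proteins themselves. With both included, the 14 markers summed to between 35.8 and 40.4 CPM in libraries 1 to 3. In libraries 4 to 6 the 14 markers summed to between 49.6 and 51.1 CPM, and these sums came mostly through Ctss. Of the other lists, markers of stroma and epithelium summed to between 42.9 and 88.9 CPM, mostly through Epcam and Pecam1. The rest of that list was low: with plain library totals Col1a1 lay between 1.28 and 1.83 CPM. Cdh5, Col1a2 and Krt8 then reached at most 0.165, 0.03 and 0.0275 CPM. B cell markers summed to at most 9.99 CPM. Killer T cell markers summed to at most 10.1 CPM, platelet markers to 11.9, dendritic cell markers to 7.24, neutrophil markers to 1.89, erythroid markers to 1.56 and natural killer cell markers to 0.225 CPM. Plasma cell markers summed to between 182 and 197 CPM, mostly through Xbp1, a stress-response gene that many cells express. Intervals of 95% are exact Poisson intervals and cover counting error only, since amplified reads are not independent molecules.

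The members' ranges were close in size to those of all genes. Range here means the fold between a gene's highest and lowest library, on the log2 CPM scale with a prior count of 2. A range of 1.5-fold or more was found for 9 of the 41 members that reached 1 CPM. That is 22.0%, against 27.6% of all 11516 genes that did so. A range of 2-fold or more was found for 1 member, or 2.44%, against 10.5% of all genes. The median range was 1.29-fold both for the members and for all genes. At a minimum mean of 10 CPM, a limit chosen after seeing the data, 1.5-fold was reached by 6 of 36 members and 13.5% of 8371 genes. There, 2-fold was reached by 0 members and 3.33% of genes, and the median range was 1.27-fold for members and 1.22-fold for all genes. Depth was enough to tell highest from lowest library for most: the 95% intervals of these libraries were apart for 36 of 41 members and for 85% of all genes. The 5 genes whose intervals met were Tfeb, Mcoln1, Gaa, Atp6v1a and Atp6v1h.

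**Figure D1:**
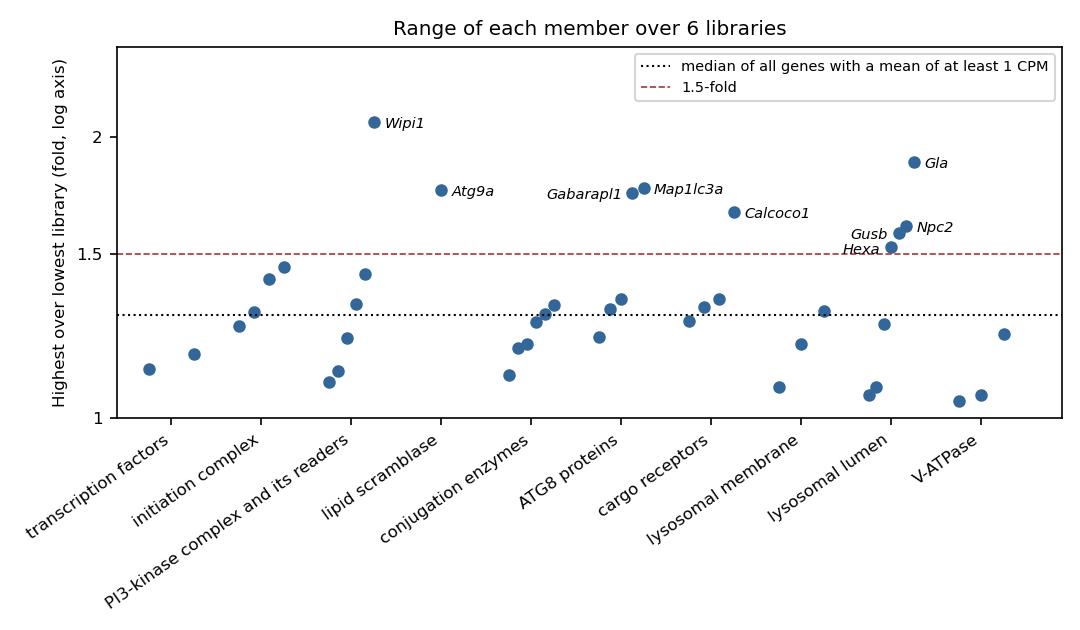
Fold of the highest over the lowest of 6 libraries (log axis) for each of the 41 members that reached a mean of 1 CPM, by role, with 1 point per gene. The 9 named genes lie at 1.5-fold (dashed line) or above, and the dotted line is the median of all genes, 1.29-fold.

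The members as a list leaned the same way in several roles. Their median deviation from each gene's own median over the libraries was 0.10, 0.13, 0.10, -0.08, -0.11 and -0.11 log2 units, a range of 0.24. For 153 other genes of the same pathways, described further on, that range was 0.05. All 11516 genes together ranged by 0.01, but scaling for library composition itself brings their median near 0, so that value is no background for a list. The cells were measured in bulk, so that fewer cells of a type and less RNA per cell cannot be told apart. With plain library totals the median of all genes itself moved by 0.12 log2 units between libraries, lowest in library 1 and highest in library 5. The range of the members' median was then also 0.12, and that of the 153 other pathway genes 0.07. Mitochondrially encoded genes took 2.02%, 1.90%, 1.98%, 2.45%, 2.37% and 2.41% of counts, and without them the range of the members' median was again 0.24. Within the T cell list, Ctla4 stood at 1526, 1559, 1548, 791, 771 and 809 CPM, while Cd4 stood at 436, 426, 412, 480, 475 and 482 CPM. Foxp3 stood at 7.37, 7.66, 7.86, 11.9, 13.4 and 11.2 CPM and Epcam at 40.6, 44.6, 46.1, 14.0, 14.0 and 13.4 CPM. B cell markers summed to 6.05, 6.39, 6.63, 9.99, 9.31 and 9.73 CPM and neutrophil markers to 1.51, 1.16, 1.89, 0.422, 0.431 and 0.225 CPM. No neutrophil marker reached a mean of 1 CPM, and in libraries 1 to 3 their sums came mostly through Ly6g. With plain totals Ly6g stood at 1.36, 0.942, 1.25, 0.0826, 0.210 and 0.0581 CPM. Mpo, of the same list, then stood at 0.0617, 0.139, 0.582, 0.330, 0.240 and 0.174 CPM. Apart from Mpo, these values and the mitochondrial share separate the same libraries as many members do, and their part in the result was not tested. The role-by-role deviations ranged by 0.42 for the ATG8 proteins, 0.37 for cargo receptors, 0.35 for the initiation complex and 0.28 for the lipid kinase group. They ranged by 0.12 for conjugation enzymes, 0.12 for lysosomal lumen proteins, 0.11 for lysosomal membrane proteins and 0.06 for the V-ATPase, and by 0.20 for the transcription factors, highest in library 6. With plain totals the lipid kinase group ranged by 0.15, below the lysosomal membrane proteins at 0.17 and the transcription factors at 0.30. For the lumen proteins that small value goes with large ranges of single genes in opposite directions, described further on.

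**Figure D2:**
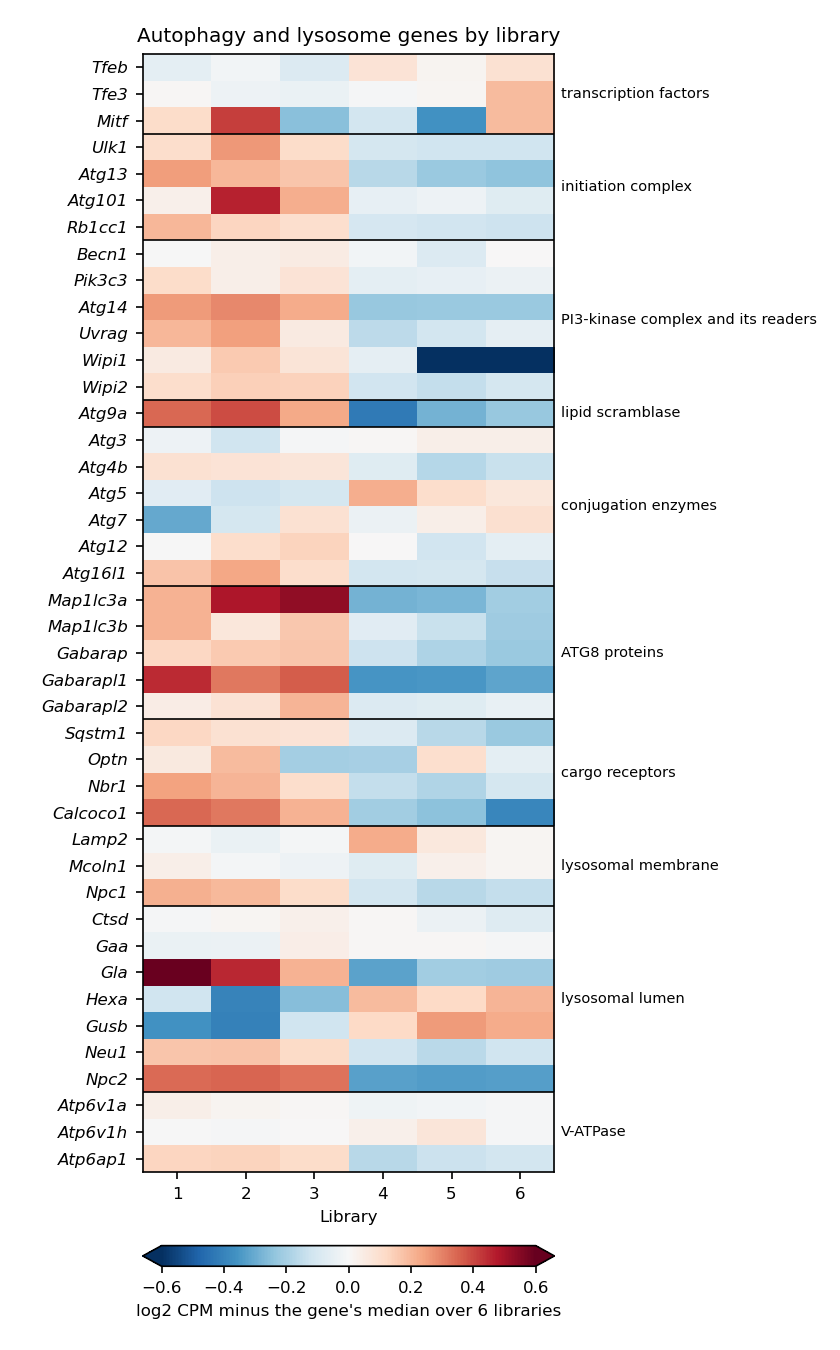
Deviation of log2 CPM from each gene's median over the 6 libraries, with genes in rows by role and libraries in columns; red is above and blue below the median, and colours stop at 0.6 log2 units. Genes such as Atg9a, Gabarapl1 and Npc2 are red in libraries 1 to 3 and blue in libraries 4 to 6, Hexa and Gusb show the opposite, and the V-ATPase genes Atp6v1a and Atp6v1h are pale throughout.

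The transcription factors TFEB, TFE3 and MITF switch on genes of lysosome formation and autophagy when they enter the nucleus, which is controlled mainly through phosphorylation. Tfeb stood at 7.14, 7.37, 7.03, 7.88, 7.53 and 7.93 CPM. Its highest and lowest libraries differed 1.13-fold, and the interval in library 6 (7.03 to 8.91 CPM) met that in library 3 (6.17 to 7.96 CPM). Tfe3 stood at 27.7, 27.0, 26.9, 27.5, 27.9 and 31.5 CPM, so that library 6 lay above the other 5. Mitf, the factor best known from pigment cells, stood at 0.901, 1.13, 0.688, 0.765, 0.632 and 0.956 CPM, below the mean of 1 CPM used as the filter. Even its highest library, 2 (interval 0.802 to 1.54 CPM), overlapped with its lowest, 5 (interval 0.396 to 0.957 CPM). Per length, Tfe3 was the most abundant of these factors at a median of 6.74 FPKM, with Tfeb at 0.989 FPKM and Mitf at 0.0764 FPKM.

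TFEB and its relatives bind a palindrome known as the CLEAR element, with the core TCACGTGA. A RefSeq promoter, from 250 bases before to 50 bases after the gene start on assembly GRCm38.p6, was matched for 34 of the 42 genes. The letters TCACGTGA, which read the same on both strands, were in the promoters of 5 of these 34 genes, or 14.7%, against 1.12% of all 27025 genes in the table. The shorter CACGTG, which any TCACGTGA contains, was found for 9 of 34 members and 8.09% of all genes, and TCACGTGA with G before and C after it for 0 members and 0.370% of all genes. The 5 stretches that hold TCACGTGA are shown because they let the ranges of genes with this core be set beside it, with the core in capitals, read 5′ to 3′ on the strand of the gene and ending before the gene start.
Ctsd, chr7:142387889-142387956, minus strand: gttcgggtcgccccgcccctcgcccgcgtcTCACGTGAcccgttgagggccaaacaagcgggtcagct
Mcoln1, chr8:3500443-3500510, plus strand: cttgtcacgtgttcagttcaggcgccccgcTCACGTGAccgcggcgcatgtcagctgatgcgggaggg
Atp6v1a, chr16:44139354-44139421, minus strand: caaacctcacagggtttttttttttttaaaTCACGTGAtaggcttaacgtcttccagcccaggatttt
Atg3, chr16:45158727-45158794, plus strand: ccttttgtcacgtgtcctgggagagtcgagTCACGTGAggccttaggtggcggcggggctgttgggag
Gla, chrX:134601163-134601255, minus strand: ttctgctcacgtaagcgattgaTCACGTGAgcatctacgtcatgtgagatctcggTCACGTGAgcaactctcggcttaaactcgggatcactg

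Of these 5 genes, 4 were among the steadiest members. Atp6v1a ranged 1.04-fold, Mcoln1 and Ctsd 1.08-fold each, and Atg3 1.11-fold. With plain totals Atg3 was less steady, at 1.21-fold, while Atp6v1a, Ctsd and Mcoln1 ranged 1.06-fold, 1.10-fold and 1.13-fold. Gla, the only 1 of the 5 with 2 copies of the core, 228 and 195 bases before its start, ranged 1.88-fold. The 28 members that reached a mean of 1 CPM and whose matched promoter has no such core ranged from 1.06-fold to 2.08-fold, with a median of 1.32-fold. A match of letters is a description of the sequence and no evidence that a factor is bound there.

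The initiation complex joins the kinase ULK1 to its partners ATG13, ATG101 and RB1CC1, which is also called FIP200. None of the 4 genes ranged 1.5-fold. Ulk1 stood at 55.1, 61.4, 55.3, 47.8, 47.3 and 47.3 CPM, a range of 1.30-fold. Atg13, the adaptor that mTORC1 phosphorylates, stood at 49.2, 47.4, 46.4, 36.7, 35.4 and 34.9 CPM, a range of 1.41-fold. Rb1cc1, the scaffold, stood at 86.8, 82.7, 81.1, 70.5, 69.9 and 69.3 CPM, a range of 1.25-fold. For these 3 genes libraries 1, 2 and 3 were the highest and did not overlap with the others, with TMM, with DESeq2 size factors and with plain totals. Atg101, which stabilises ATG13, stood at 13.1, 17.6, 14.9, 12.4, 12.5 and 12.1 CPM, and library 2 decided its range of 1.45-fold.

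Beclin 1 and the lipid kinase PIK3C3, also called VPS34, make the phosphatidylinositol 3-phosphate that marks the growing membrane. Both were steady, with Becn1 between 95.7 and 104.6 CPM and Pik3c3 between 48.8 and 54.8 CPM. Of the Becn1 transcript sequence, 36.8% of 50-base words also occur on the opposite strand in transcripts of other genes, foremost Cntd1, and the sources used here do not give whether the counting used strand. The subunits that direct this kinase varied more than its core. Atg14, which brings it to autophagosome formation, stood at 36.0, 36.7, 35.2, 25.7, 25.8 and 25.8 CPM, a range of 1.43-fold with libraries 1 to 3 well apart from the rest. Uvrag, its counterpart in the endosomal complex, stood at 49.1, 50.8, 44.5, 38.4, 39.7 and 41.2 CPM, a range of 1.32-fold, and 17.4% of its words occur on the opposite strand of other genes.

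WIPI proteins read the lipid that this kinase makes. Wipi2, which recruits ATG16L1 to the membrane, stood at 69.4, 71.1, 71.0, 59.5, 58.4 and 59.9 CPM. Wipi1 was the member with the largest range, 2.08-fold, at 3.38, 3.64, 3.44, 3.14, 1.72 and 1.94 CPM. Libraries 5 and 6 were low and library 4 was not, since the interval in library 4 (2.60 to 3.75 CPM) lay above that in library 5 (1.32 to 2.22 CPM). The range was 1.91-fold with plain totals, 1.98-fold without library 2 and 1.85-fold without library 5. Atg9a, the scramblase that moves lipids across the growing membrane, stood at 60.3, 62.2, 55.6, 35.4, 38.9 and 40.5 CPM. Libraries 4, 5 and 6 were low and did not overlap with the others, and the range was 1.76-fold. Of its transcript words, 30.2% are shared with other annotated genes on the same strand, so its level is uncertain.

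The conjugation enzymes did not move as a group, and none of the 6 ranged 1.5-fold. ATG7 and ATG3 act as the activating and transferring enzymes of this ubiquitin-like system, and ATG12, ATG5 and ATG16L1 form the complex that places ATG8 proteins on the membrane. Atg5 stood at 24.5, 23.6, 23.9, 29.9, 27.7 and 27.0 CPM, highest in libraries 4 to 6. Atg16l1 stood at 79.9, 83.3, 76.4, 65.7, 65.8 and 64.5 CPM, highest in libraries 1 to 3. These 2 partners of 1 complex thus differed in opposite directions, by 1.27-fold and 1.29-fold. Atg12 lay between 61.7 CPM (library 5) and 73.3 CPM (library 3), and Atg3 between 45.7 and 50.8 CPM. Atg7 had the fewest counts, between 9.46 CPM (library 1) and 12.5 CPM (library 6). Atg4b, the protease that trims ATG8 proteins before and after their attachment, ranged from 34.1 to 41.0 CPM.

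All 5 ATG8 genes were highest in libraries 1, 2 and 3, by unequal amounts, although with plain totals libraries 2, 3 and 6 were the highest for Gabarapl2. Gabarapl1 stood at 97.4, 88.9, 91.8, 55.8, 56.1 and 57.4 CPM, a range of 1.74-fold. Map1lc3a, the less abundant LC3 gene, stood at 7.05, 8.56, 8.83, 4.98, 5.03 and 5.26 CPM, a range of 1.76-fold. Map1lc3b, which encodes the LC3B protein commonly used to mark autophagosomes, stood at 89.7, 81.5, 86.9, 74.0, 70.7 and 66.9 CPM. For these 3 genes no value of libraries 1 to 3 overlapped with a value of libraries 4 to 6. Gabarap ranged 1.31-fold, between 186 and 243 CPM. Gabarapl2 had the smallest range of the family, 1.22-fold, between 27.8 and 33.9 CPM.

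Per length, Gabarap led the family. In the deposited FPKM values, which divide counts by gene length and plain library total, it stood at 201, 206, 209, 185, 177 and 171 FPKM. That was from 62.2% to 65.5% of the summed FPKM of the 5 genes. Gabarapl1 made up 16.3%, 14.9%, 15.0%, 11.6%, 12.1% and 12.5% of that sum, and Map1lc3a from 1.76% to 2.45%. A share within a library does not depend on how libraries are scaled. Among reads of Gabarapl1 and Gabarapl2, a pair chosen after their values were seen, Gabarapl1 took 76.2%, 74.0%, 73.0%, 66.8%, 66.7% and 66.8%. Its exact Clopper-Pearson 95% interval was 71.7% to 74.3% in library 3 and 65.1% to 68.5% in library 6, which do not meet. Of Gabarapl1 words, 23.1% occur on the opposite strand of another gene, and 12.2% of Gabarapl2 words occur in other genes, foremost Gm3724 and Gm6051, so both levels are uncertain.

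**Figure D3:**
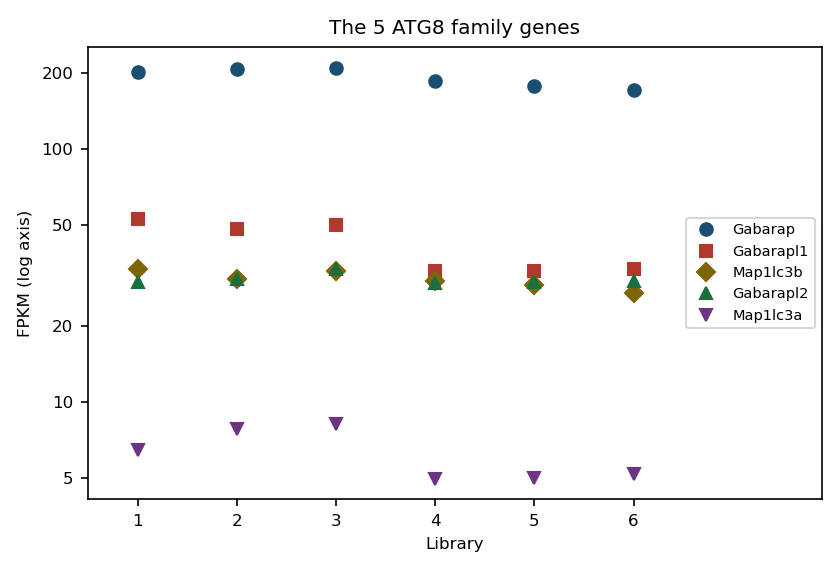
Deposited FPKM (log axis) of the 5 ATG8 family genes in each of the 6 libraries, with 1 point per library. Gabarap lies between 171 and 209 FPKM in every library, and Gabarapl1 lies near 50 FPKM in libraries 1 to 3 and near 33 FPKM, close to Map1lc3b and Gabarapl2, in libraries 4 to 6.

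Cargo receptors tie what is to be degraded to ATG8 proteins. Sqstm1, which encodes p62 and is the most abundant of them, stood at 377, 369, 366, 327, 309 and 297 CPM, a range of 1.27-fold. Nbr1, a related receptor for protein aggregates and peroxisomes, stood at 132, 128, 120.3, 101, 98.6 and 104 CPM, a range of 1.34-fold. Calcoco1, a receptor for the endoplasmic reticulum and the Golgi, stood at 38.3, 37.5, 34.8, 26.1, 25.4 and 23.0 CPM and ranged 1.66-fold. All of these were highest in libraries 1 to 3 without overlap. Optn, a receptor for damaged mitochondria and bacteria, followed another order, with 7.50, 8.21, 6.22, 6.25, 7.70 and 6.89 CPM. Of Sqstm1 words, 15.5% occur on the opposite strand of another gene, Mrnip.

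Lysosomal membrane proteins included both steady and variable genes. Lamp2, a heavily glycosylated membrane protein needed for the fusion of autophagosomes, stood at 72.2, 70.7, 72.1, 84.9, 76.0 and 73.2 CPM. Library 4 alone stood out above the other 5. With plain totals libraries 4, 5 and 6, at 88.6, 79.3 and 75.6 CPM, all lay above libraries 1 to 3, at 67.8 to 69.7 CPM. Mcoln1, the calcium channel that signals to TFEB, ranged from 23.9 to 25.8 CPM. Npc1, the membrane transporter that exports cholesterol from the lysosome, stood at 127, 125, 118, 102, 97.6 and 99.0 CPM.

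The soluble lysosomal proteins differed in opposite directions, and 4 of 7 ranged 1.5-fold or more, where 27.6% of all genes did. Of the 4, Npc2 fell below that limit with plain totals and Hexa without library 2. Npc2, which hands cholesterol to NPC1, was the most abundant of the 42 genes per length, at 1079, 1087, 1068, 682, 677 and 679 CPM. The values fell into 2 tight sets, libraries 1 to 3 and libraries 4 to 6, and the range was 1.61-fold, or 1.48-fold with plain totals. Reads of Npc2 made up 89.5%, 89.7%, 90.1%, 87.0%, 87.4% and 87.3% of the reads of Npc2 and Npc1, a pair chosen after its values were seen. Both cholesterol genes were thus highest in libraries 1 to 3, with Npc2 differing more than Npc1.

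Glycosidases gave the other large ranges. Gla, the alpha-galactosidase lacking in Fabry disease, stood at 12.9, 11.7, 9.87, 6.83, 7.39 and 7.37 CPM. Library 1, with an interval of 11.7 to 14.2 CPM, lay above library 3, with 8.85 to 11.0 CPM, and both lay above library 4, with 6.02 to 7.71 CPM. Gusb, the beta-glucuronidase often used as a reference gene, went the other way with 13.4, 13.0, 15.9, 18.7, 20.6 and 20.2 CPM, a range of 1.58-fold. Hexa, which encodes a lysosomal hexosaminidase subunit, stood at 17.2, 14.1, 15.6, 21.3, 20.3 and 21.6 CPM, a range of 1.52-fold that fell to 1.37-fold without library 2. Of Hexa words, 10.6% occur on the opposite strand of Tmem202.

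The remaining hydrolases were steadier. Ctsd, the aspartic protease cathepsin D, stood at 261, 264, 268, 264, 256 and 248 CPM, and Gaa, the acid glucosidase that digests glycogen, lay between 40.6 and 43.0 CPM. Neu1, a sialidase, stood at 36.6, 36.8, 35.3, 30.2, 29.1 and 30.1 CPM, a range of 1.26-fold. Of Ctsd words, 32.4% are shared with the gene model Gm49369.

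**Figure D4:**
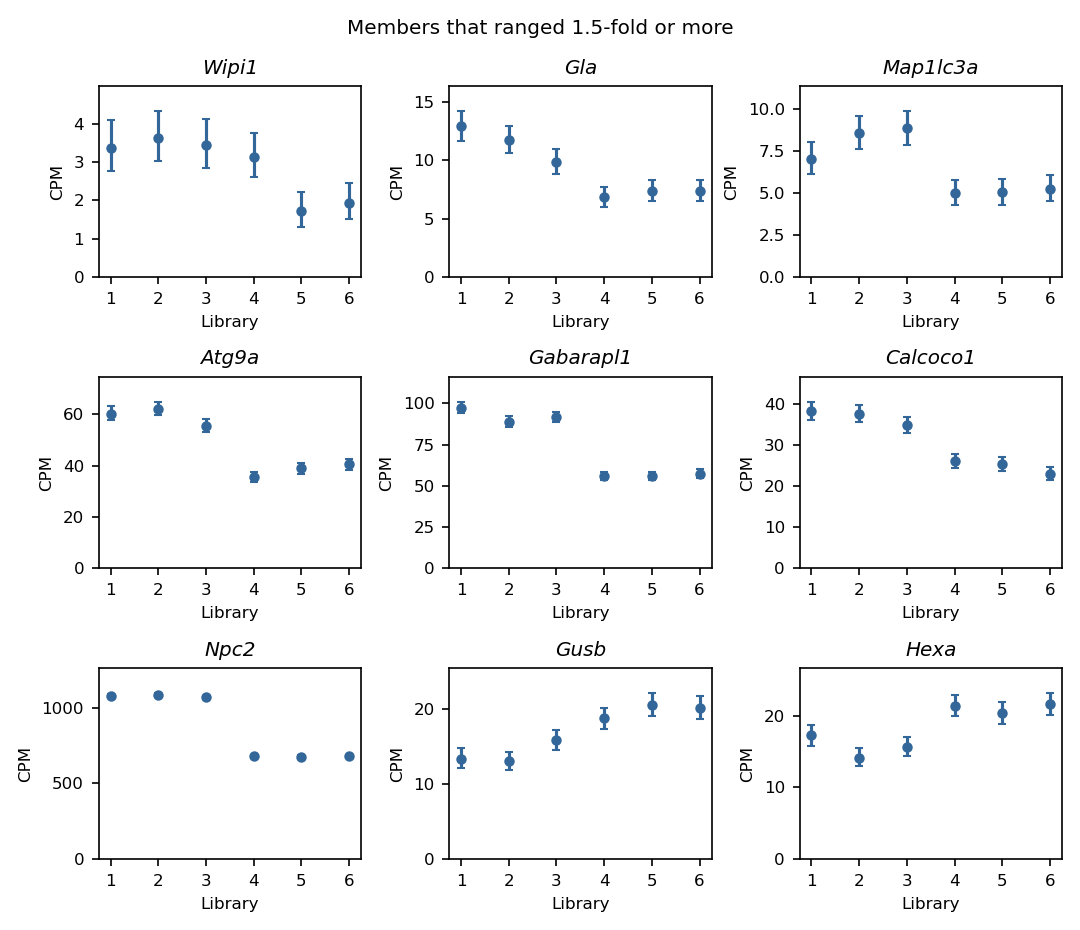
CPM with exact 95% counting intervals in each of the 6 libraries, on linear axes from 0, for the 9 members that ranged 1.5-fold or more. Of the 9, 6 are high in libraries 1 to 3 and low in libraries 4 to 6, Gusb and Hexa show the reverse, and Wipi1 is low in libraries 5 and 6 only.

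The V-ATPase pumps protons into the lysosome and keeps it acidic. Its catalytic subunit gene Atp6v1a was among the steadiest members, at 136, 134, 133, 130.4, 131 and 132 CPM, a range of 1.04-fold whose direction turned with plain totals. Atp6v1h, a regulatory subunit gene, ranged from 47.1 to 49.9 CPM. Atp6ap1, which encodes an accessory protein for assembly of the pump, stood at 117, 117, 115, 95.1, 97.6 and 98.8 CPM, a range of 1.23-fold.

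In order of median FPKM over the 6 libraries, the members ran from Npc2 at 267 FPKM through Gabarap at 193, Ctsd at 135 and Sqstm1 at 61.1 FPKM down to Optn at 1.54, Tfeb at 0.989 and Mitf at 0.0764 FPKM. The top 4 did not overlap with their neighbours in any library. Of the 41 neighbouring pairs in that order, 32 overlapped when all libraries were pooled, and 5 of these kept 1 order within every library. The rest of the 32 did not differ beyond their spread and changed order between libraries. The median member stood at 10.9 FPKM, against 7.56 FPKM over all genes that reached 1 CPM, and 32 of 42 members lay above that value.

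Other genes of the same pathways, 166 by name, were taken from lists of further autophagy factors, lysosomal proteins and V-ATPase subunits. Of these, 153 reached a mean of 1 CPM, and their median range was 1.22-fold. A range of at least 1.5-fold was found for 27 of the 153 and of at least 2-fold for 6, where 27.6% and 10.5% of all genes reached these limits. The 6 were Arsb, Ctsf, Atp6v0d2, Rragb, Cd63 and Galc. Atp6v0d2, a subunit isoform of the proton pump best known from osteoclasts and macrophages, stood at 35.6, 30.6, 27.8, 11.9, 9.28 and 9.05 CPM, a range of 3.91-fold. Its widely expressed counterpart Atp6v0d1 lay between 58.8 and 72.8 CPM, and Atp6v0d2 took 34.5%, 30.2%, 27.6%, 16.0%, 13.6% and 12.7% of the reads of the pair, which was chosen after its values were seen. Of the macrophage and monocyte markers, Lyz2 and Csf1r were at or near 0, with at most 0.116 and 0.0860 CPM. Others were not: with plain totals Ctss stood at 29.0, 24.9, 25.6, 41.9, 41.6 and 41.8 CPM, and Cd68 between 8.43 and 11.7 CPM. Whether other cells had a part in the Atp6v0d2 values was not tested.

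Galc, the lysosomal galactocerebrosidase, stood at 27.9, 33.2, 30.3, 15.5, 13.9 and 14.3 CPM, a range of 2.38-fold. Ctsf, a cysteine cathepsin, stood at 5.57, 3.73, 3.30, 1.27, 1.95 and 2.28 CPM, and Cd63, a membrane protein of late endosomes, at 5.37, 4.94, 5.11, 1.95, 2.79 and 3.01 CPM. Both were low in libraries 4 to 6. Arsb, a sulfatase that degrades dermatan sulfate, was high there, at 1.93, 1.21, 1.92, 4.98, 4.74 and 5.76 CPM, a range of 4.58-fold. Rragb, a Rag GTPase that brings mTORC1 to the lysosome, was also highest there, at 0.933, 1.13, 1.06, 2.77, 1.98 and 1.69 CPM.

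**Figure D5:**
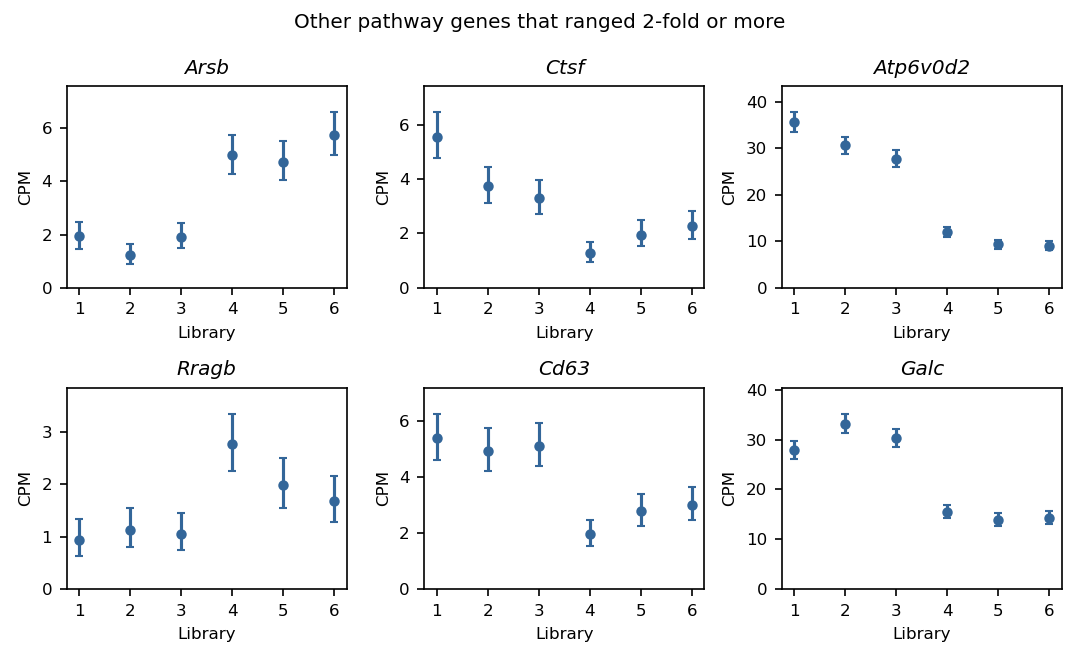
CPM with exact 95% counting intervals in each of the 6 libraries, on linear axes from 0, for the 6 other pathway genes that ranged 2-fold or more. Atp6v0d2, Galc, Ctsf and Cd63 are highest in libraries 1 to 3, while Arsb and Rragb are highest in libraries 4 to 6.

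The most abundant genes of those further lists per length mostly ranged less. Laptm5, a lysosomal membrane protein of blood cells, had a median of 470 FPKM and ranged 1.19-fold, and Psap, the precursor of saposins, had 136 FPKM and ranged 1.07-fold. Bnip3, a receptor for the removal of mitochondria and a hypoxia-induced gene, had 314 FPKM and ranged 1.41-fold, between 457 and 644 CPM. Vmp1 and Atp6v0e ranged 1.28-fold and 1.37-fold. Rab7, M6pr, Rragc and Tecpr1, which serve fusion, sorting, nutrient sensing and autophagosome maturation, ranged between 1.04-fold and 1.18-fold.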

How the data were processed

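Per the labels' protocols, TRIzol was used to extract RNA and a VAHTS Universal V5 kit to build libraries. Tools named in the submitters' processing notes are DESeq2, HTSeq, HISAT2, fastp and R 3.2.0, with build GRCm39, without order or settings. Which annotation and strand setting were used is not given in the sources used here. Raw read counts per gene, and FPKM values per gene, were used as deposited by the authors. The deposited FPKM values equal counts per length and plain total, so they are no separate evidence.

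Counts were scaled with TMM factors of edgeR 4.0.16 in R 4.3.3, from 0.958 to 1.04, with Python 3.11.15, numpy 2.4.6, pandas 2.3.3, scipy 1.17.1 and matplotlib 3.10.9. Log2 CPM used a prior count of 2, and genes below a mean of 1 CPM were left out. The labels name no groups or separate animals, so there is no test between libraries. The range code was tested on simulated data. The members, lists and rules were chosen with earlier results of these data known. All 42 members are named; of other pathway genes, those ranging 2-fold or more and the most abundant of each list. Marker lists covered killer T, B, plasma, myeloid, dendritic, natural killer, erythroid, platelet and stromal cells. Shared sequence was counted as 50-base words in GENCODE M21 transcripts. Alternatives were DESeq2 1.42.0 size factors, plain totals, FPKM with a pseudocount of 0.1 or 1, other filters, 0.5 as prior count, the libraries left out in turn, no mitochondrially encoded genes, and a mean over members in place of the median.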

Additional observations from a re-analysis of the deposited data

How the results depend on the processing

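The 9 members at 1.5-fold or more were 8 with plain totals, where Npc2 was lost, 5 with FPKM and a pseudocount of 1, where Npc2, Gusb, Calcoco1 and Wipi1 were lost, and between 8 and 9 when 1 library was left out, where Hexa was lost without library 2. The 1 member at 2-fold or more, Wipi1, became 0 with plain totals, with FPKM and either pseudocount and with a minimum mean of 5 or 10 CPM, the last chosen after seeing the data, and between 0 and 1 when 1 library was left out. The higher minimum removes Wipi1 itself, and a pseudocount of 1 shrinks the ranges of genes with low FPKM. The median log2 range of the members, 0.37, was 0.28 with plain totals, 0.28 with FPKM and a pseudocount of 0.1, 0.26 with FPKM and a pseudocount of 1 and between 0.32 and 0.39 without 1 library. The range of their median deviation, 0.24 log2 units, was 0.12 with plain totals, 0.12 and 0.11 with FPKM and pseudocounts of 0.1 and 1, and between 0.19 and 0.24 without 1 library. With a minimum mean of 10 CPM the number at 1.5-fold was 6. Of 504 ranges of single members under the 12 settings that do more than filter genes, 80 moved by more than their counting error. Most of these 80 were under plain totals or under FPKM, which itself rests on plain totals. The rest arose when a library was left out. Many members' ranges thus depend on how libraries are scaled. No paired analysis was possible because the labels put no library in a group. Depth limits Mitf, whose libraries could not be told apart.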

Other observations

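Many members had the largest gap in their ordered values in the same place, between sets of libraries that the labels do not name. For each gene the libraries were ordered by level and the largest gap between neighbours was found. Every gene has such a gap, so the rule does not show how separate the libraries are. It took 33.1% of the log2 range for Map1lc3b, 45.4% for Gla and 78.6% for Gabarapl1. The largest gap lay below libraries 1, 2 and 3 for 21 of 41 members, or 51.2%, against 18.7% of all 11516 genes. It lay below libraries 4, 5 and 6 for 2 members, or 4.88%, against 16.1% of all genes. With plain totals these were 16 and 7 members, or 39.0% and 17.1%, against 11.1% and 27.8% of all genes. With DESeq2 size factors they were 22 and 2 members, or 53.7% and 4.88%, against 19.6% and 15.3% of all genes. Gabarapl1, at 97.4, 88.9, 91.8, 55.8, 56.1 and 57.4 CPM, and Npc2, at 1079, 1087, 1068, 682, 677 and 679 CPM, show the pattern in each library. Members share their source libraries and were chosen by name, with earlier results of these data known. These counts therefore describe these 6 libraries, and what separates the libraries was not tested.

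The same 3 libraries were the highest under TMM, DESeq2 size factors and plain totals for 28 of 41 members, or 68.3%. All genes gave 60.8%. They were libraries 1, 2 and 3 for 21 members, or 51.2%, against 18.2% of all genes, and libraries 4, 5 and 6 for 5 members, or 12.2%, against 28.6%: Tfeb, Atg3, Atg5, Hexa and Gusb. Among 153 other pathway genes the largest gap lay below libraries 1, 2 and 3 for 37, or 24.2%, against 18.7% of all genes. It lay below libraries 4, 5 and 6 for 15, or 9.80%, against 16.1%. With plain totals the order turned, to 17 and 27, or 11.1% and 17.6%, against 11.1% and 27.8% of all genes.

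TCACGTGA was in the promoters of 12 of 133 other pathway genes with a RefSeq promoter, or 9.02%. The ranges of these 12 ran from 1.10-fold to 1.52-fold with a median of 1.25-fold, against a median of 1.21-fold for the 114 without it that reached a mean of 1 CPM. The steadiness of 4 of the 5 members with that core was thus not seen again as a lower median range in these genes. For Atg3 that steadiness held less with plain totals, at 1.21-fold.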
